A study of Mus musculus with 24 samples.

Results

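Protein kinase C isoforms were described here through the probe sets annotated with exactly 1 of the symbols Prkca, Prkcb, Prkcd and Prkce. These 4 of 18194 genes named on the arrays had 12 of the 45101 probe sets, with 3 for Prkca, 3 for Prkcb, 2 for Prkcd and 4 for Prkce. After the dimmest 40% of probe sets were set aside, 10 of the 12 were among the 27022 probe sets tested. Probe sets are numbered within a gene from the brightest, as "Prkca probe set 1". The 2 outside were Prkcb probe set 3, with intensities of 0.645 to 56.1, and Prkce probe set 4, with 0.121 to 13.2.

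The arrays measured total RNA of 2 brain regions from mice bred out of C57BL/6J and A/J, which are inbred strains, and selected on contextual fear conditioning, in which a mouse freezes in a place where it had received a shock. There were 4 groups of 6 arrays: amygdala of high freezing mice, amygdala of low freezing mice, hippocampus of high freezing mice and hippocampus of low freezing mice. The labels gave no treatment, age or sex, and left unsaid whether each array stands for a single animal or a pool. The p-values therefore reflect only how much the arrays of a group differ. Arrays were numbered 1 to 6 in the low freezing groups and 7 to 12 in the high freezing groups.

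Protein kinase C is a family of serine/threonine kinases that act downstream of receptors coupled to phospholipase C. That enzyme splits a membrane lipid into diacylglycerol, which recruits the kinase to the membrane, and inositol trisphosphate, which releases calcium. The classical isoforms encoded by Prkca and Prkcb need both calcium and diacylglycerol, whereas those encoded by Prkcd and Prkce respond to diacylglycerol without calcium. Prkcb is known for its part in contextual fear learning in mice. Prkcd marks a class of inhibitory neurons in the lateral part of the central amygdala that gates freezing, and it is also abundant in the thalamus.

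The genes lie on mouse chromosomes 11 (Prkca), 7 (Prkcb), 14 (Prkcd) and 17 (Prkce). RefSeq promoter sequences matched 3 of the 4 members, all but Prkce. The 250 bases before the annotated start are shown because Prkca and Prkcb were lower and Prkcd higher in the amygdala, as given below. They are in GRCm38.p6, written 5′ to 3′ on the gene's strand, at chr11:108343889-108344138 (minus strand, Prkca), chr7:122288875-122289124 (plus strand, Prkcb) and chr14:30626209-30626458 (minus strand, the upstream one of 2 annotated Prkcd starts). Capitals mark the GC box, GGGCGG or its complement CCGCCC, and the E-box CACGTG, which reads the same on both strands.
Prkcd: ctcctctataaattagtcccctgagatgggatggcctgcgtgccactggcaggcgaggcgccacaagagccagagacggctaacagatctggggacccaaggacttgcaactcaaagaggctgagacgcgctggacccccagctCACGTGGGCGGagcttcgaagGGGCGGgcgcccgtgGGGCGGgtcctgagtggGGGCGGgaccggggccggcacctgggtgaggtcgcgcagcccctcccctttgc
Prkca: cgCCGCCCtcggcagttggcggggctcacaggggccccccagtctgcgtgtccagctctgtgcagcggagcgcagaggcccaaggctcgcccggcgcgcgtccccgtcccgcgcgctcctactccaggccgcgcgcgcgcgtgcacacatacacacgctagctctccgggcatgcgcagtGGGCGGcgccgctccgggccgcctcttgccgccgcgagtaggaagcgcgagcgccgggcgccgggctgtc
Prkcb: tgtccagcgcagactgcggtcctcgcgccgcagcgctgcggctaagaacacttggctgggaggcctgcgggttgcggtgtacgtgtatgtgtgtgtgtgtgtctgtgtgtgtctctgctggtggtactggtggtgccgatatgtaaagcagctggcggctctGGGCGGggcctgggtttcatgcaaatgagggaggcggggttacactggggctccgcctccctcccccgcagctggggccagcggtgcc
The GC box occurred 4 times before the upstream Prkcd start, 2 times before Prkca and 1 time before Prkcb, and 32.7% of all 32851 promoter entries held at least 1 in the same window. The E-box occurred once, before the upstream Prkcd start, where its last base is shared with the first GC box; 6.02% of the entries held one. Bases G and C made up 67.6% of the window before the upstream Prkcd start, 76.8% before Prkca and 65.2% before Prkcb, against a median of 52.4% over all entries. The window before the downstream Prkcd start (chr14:30610311-30610560), not printed, held 0 GC boxes and 0 E-boxes, and G and C made up 50.8% of it. A match describes these letters only.

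The deposited intensities had been scaled to a common level, with trimmed means of 149.3 to 149.4 on all 24 arrays. Pairs of arrays within a group correlated at r = 0.969 to 0.983, and no 2 arrays held identical values. Of the region markers, 6 of 6 dentate gyrus genes and 6 of 7 CA field genes were lower in the amygdala arrays. Genes listed for the striatum (9 of 9), choroid plexus (7 of 7) and oligodendrocytes (9 of 9) were higher there. Those listed for the thalamus (9 of 11) and central amygdala (11 of 12, Prkcd included) were mostly higher. Higher too were most genes listed for microglia (7 of 10), hypothalamus (5 of 7) and astrocytes (5 of 8, with 2 lower). Of 7 genes listed for endothelium, 3 were higher and 4 did not pass. None of 6 listed for the basolateral amygdala was higher and 5 were lower. Over all 12471 genes 31.6% were higher and 24.6% lower. Neurod6 was listed for both the basolateral amygdala and the CA fields, and Wfs1 for both the central amygdala and the CA fields. How much basolateral tissue the pieces held was not tested. In pieces of tissue such as these, fewer cells of a type and less RNA per cell cannot be told apart.

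The first comparison asked how the isoforms differed between amygdala and hippocampus. Prkcd was higher in the amygdala and Prkca, Prkcb and Prkce were lower, and every one of the 10 tested probe sets passed the test, 2 higher and 8 lower. Across all probe sets tested, 51.2% passed, 27.1% higher and 24.1% lower, so a call alone did not set these genes apart. At least 2-fold differences were seen in 5.55% of all probe sets (3.36% higher and 2.19% lower), and in both Prkcd probe sets, all 3 tested Prkce probe sets and 1 of 3 Prkca probe sets. Calls are at an adjusted p under 0.05 in limma's moderated linear model on log2(intensity + 16), with p-values adjusted by Benjamini-Hochberg over all 27022 tested. The added 16 understates the change of dim probe sets.

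Prkcd, the isoform higher in the amygdala, had the largest log2 difference of the 4 genes, though Prkce probe set 1 and Prkca probe set 1 had narrower intervals and smaller adjusted p-values. Prkcd probe set 1 read 319, 910, 878, 417, 1323 and 2285 on the amygdala arrays of high freezing mice numbered 7 to 12, and 984, 771, 1199, 1173, 1544 and 1112 on those of low freezing mice numbered 1 to 6. In the hippocampus it read 159 to 193 with a median of 169 in high freezing mice, and 130 to 172 with a median of 149 in low freezing mice. All 12 amygdala arrays were above all 12 hippocampus arrays, although arrays 7 and 10 of the high freezing amygdala were well below the other amygdala arrays and array 12 well above them.

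The amygdala mean of this probe set was 1076 ± 517 against 161 ± 17.3 in the hippocampus (SD, n = 12 arrays each). The fitted difference was 2.47 on the log2 scale (95% interval 2.08 to 2.86), or 5.55-fold higher, with an adjusted p of 4.0e-12 from limma. It ranked 54 of 27022 from the top. Prkcd probe set 2 is dim. It averaged 77.3 ± 31.6 on amygdala arrays and 17.2 ± 7.23 on hippocampus arrays (SD, n = 12 each), a difference of 1.44 on the log2 scale (95% interval 1.13 to 1.76, limma adjusted p = 4.1e-09). Its groups overlapped, since array 10 of the high freezing amygdala read 24.2 and the highest hippocampus array 29.3.

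Among the classical isoforms, Prkca had log2 differences of -0.90 to -1.37 and Prkcb of -0.27 and -0.54, which were not tested against each other. Prkca probe set 1 ranged from 344 to 519 with a median of 416 in the high freezing amygdala and from 353 to 571 with a median of 452 in the low freezing amygdala. In the hippocampus it ranged from 1040 to 1205 with a median of 1142 in high freezing mice and from 1082 to 1263 with a median of 1173 in low freezing mice. No amygdala array reached the lowest hippocampus array. The log2 difference was -1.37 (95% interval -1.5 to -1.24), a 2.59-fold lower level in the amygdala, with a limma adjusted p of 6.5e-17.

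The other Prkca probe sets fell as well, with overlap between the regions. Prkca probe set 2 averaged 71.6 ± 15.9 on amygdala arrays and 147 ± 23.5 on hippocampus arrays (SD, n = 12 each), a log2 difference of -0.90 with a limma adjusted p of 1.0e-09. Prkca probe set 3, the dimmest probe set tested, averaged 15.3 ± 11.3 and 39.5 ± 8.13 in the same order, also a log2 difference of -0.90, with a limma adjusted p of 2.4e-05. Its size depends on the added constant, at -1.73 with 1 and -0.39 with 64 in place of 16.

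Prkcb had the log2 differences nearest to 0 among the 4 genes. Prkcb probe set 1 ranged from 2179 to 3905 with a median of 3327 in the high freezing amygdala and from 2414 to 3754 with a median of 3443 in the low freezing amygdala. In the hippocampus it ranged from 3514 to 4093 with a median of 3919 in high freezing mice and from 3549 to 4429 with a median of 4104 in low freezing mice. The regions overlapped, and the lowest reading came from array 12 of the high freezing amygdala, the array with the highest Prkcd. The log2 difference was -0.27 (95% interval -0.42 to -0.12), 1.20-fold lower, with a limma adjusted p of 0.0032. Prkcb probe set 2 averaged 1340 ± 287 on amygdala arrays and 1907 ± 163 on hippocampus arrays (SD, n = 12 each), a log2 difference of -0.54 with a limma adjusted p of 3.6e-05. Array 12 was lowest there too, at 657.

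Prkce, a calcium-independent isoform like Prkcd, moved the opposite way to it. Prkce probe set 1 ranged from 968 to 1220 with a median of 1097 in the high freezing amygdala and from 962 to 1263 with a median of 1045 in the low freezing amygdala. In the hippocampus it ranged from 2204 to 2340 with a median of 2290 in high freezing mice and from 2083 to 2542 with a median of 2409 in low freezing mice. The regions were separate on this probe set and on the other 2 tested. The log2 difference was -1.09 (95% interval -1.19 to -1.0, limma adjusted p = 7.4e-18). It was -1.02 for Prkce probe set 2 and -1.10 for Prkce probe set 3, so the 3 probe sets gave 2.14-fold, 2.03-fold and 2.14-fold lower levels.

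In all, 5 of the 10 probe sets had no overlap between the 12 amygdala and 12 hippocampus arrays, the brighter Prkcd probe set higher and 1 Prkca and 3 Prkce probe sets lower. Over all probe sets 13.2% had none, 7.16% higher and 6.01% lower. The regional differences held the same sign in each freezing group taken alone. For Prkcd probe set 1 the log2 difference was 2.18 between high freezing groups and 2.76 between low freezing groups, and for Prkce probe set 1 it was -1.05 and -1.14. The test of that difference is given with the freezing comparisons. The 2 dim probe sets set aside had log2 regional differences of 0.03 (Prkcb probe set 3, adjusted p = 0.94) and -0.01 (Prkce probe set 4, adjusted p = 0.98) in limma without the filter.

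**Figure D1:**
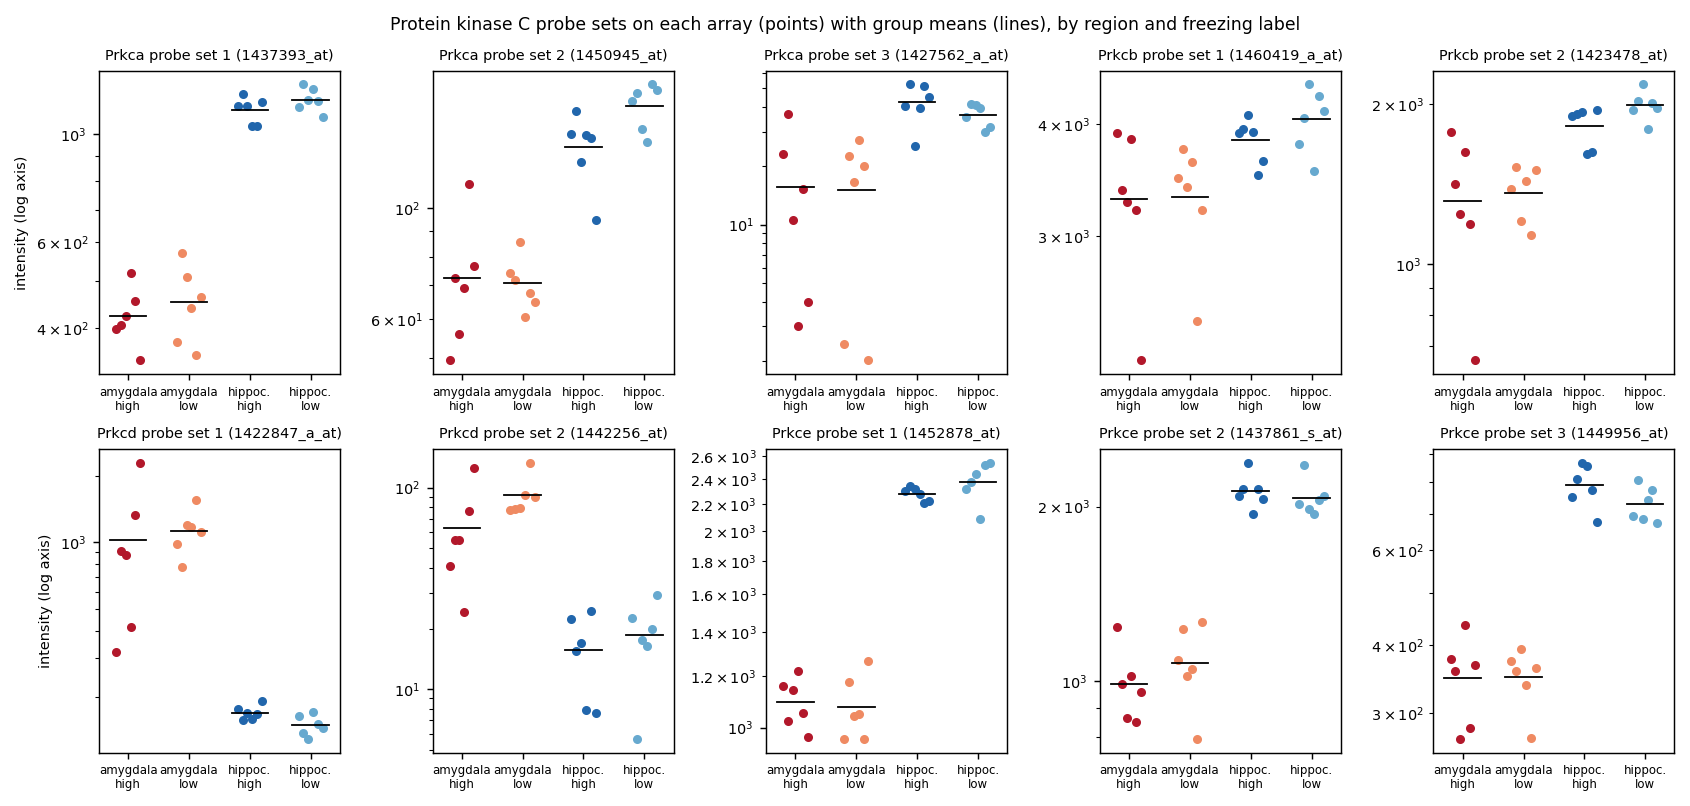
Intensity of the 10 tested probe sets on each of the 24 arrays (points, log axis that differs between panels) in the amygdala and hippocampus of high and low freezing mice, with group means as lines (6 arrays each). Both Prkcd panels are higher on the left, in the amygdala, and the Prkca, Prkcb and Prkce panels lower, and the 6 high freezing amygdala arrays of Prkcd probe set 1 run from 319 to 2285.

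The second question was whether the isoforms differed between high and low freezing mice. In the amygdala, none of the 10 probe sets passed, and 0.0555% of all probe sets did (15 of 27022). In the hippocampus, none of the 10 passed either, and 0.0518% of all did (14 of 27022). Both are limma tests with the same threshold. At an unadjusted p under 0.05 there was 1 member in the amygdala, against 10.7% of all probe sets, and 0 in the hippocampus, against 11.8%. In neither region did a member's high freezing arrays all lie on one side of its low freezing arrays (0 of 10), which 0.551% of all probe sets did in the amygdala and 0.818% in the hippocampus.

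The member below 0.05 unadjusted was the dim Prkcd probe set 2. In the amygdala it read 40.9, 55.2, 54.8, 24.2, 76.6 and 126 on high freezing arrays 7 to 12, and 77.4, 78.7, 79.2, 91.9, 133 and 90.0 on low freezing arrays 1 to 6. High freezing arrays were mostly lower, with array 12 an exception, and the groups overlapped. Its log2 difference was -0.54 (95% interval -0.99 to -0.09; limma adjusted p = 0.354). The brighter Prkcd probe set averaged 1022 ± 718 in the high freezing amygdala and 1131 ± 256 on the low freezing arrays of that region (SD, n = 6 each). Its log2 difference was -0.41 (95% interval -0.96 to 0.14; limma adjusted p = 0.634). It was -0.69 without array 12 and -0.14 without array 7 of the high freezing amygdala, so single arrays set its size.

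For Prkce probe set 1, the probe set with the narrowest interval, the log2 difference between high and low freezing was 0.03 in the amygdala (95% interval -0.11 to 0.16) and -0.06 in the hippocampus (95% interval -0.20 to 0.08). For Prkca probe set 1 it was -0.08 (95% interval -0.27 to 0.11) and -0.07 (95% interval -0.26 to 0.12) in the same order. For Prkcb probe set 1 it was -0.02 (95% interval -0.23 to 0.20) and -0.07 (95% interval -0.29 to 0.14). With 6 arrays a group, each interval gives the differences compatible with the values and is not a limit of detection. The amygdala intervals of both Prkcd probe sets, given above, were wider. The largest hippocampal value among the members was that of Prkca probe set 2, which averaged 133 ± 21.4 in high freezing mice and 161 ± 16.9 in low freezing mice (SD, n = 6 each; log2 difference -0.26, limma adjusted p = 0.426).

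Whether the freezing difference itself differed between regions was tested as an interaction. No member passed, and 0% of all probe sets did, with a smallest adjusted p of 0.706 in limma. At an unadjusted p under 0.05 there were 0 members, against 6.06% of all probe sets (1637). The largest member value was -0.58 for Prkcd probe set 1 (95% interval -1.35 to 0.20; limma adjusted p = 0.865). Of the 5 measured genes on either side of each member, 40 in all, none passed in a freezing comparison. The lowest unadjusted p among them was that of Pitpnc1, a phosphatidylinositol transfer protein gene and the fifth measured gene from Prkca on one side. It differed by -0.36 on the log2 scale in the amygdala (limma adjusted p = 0.167). Also under 0.05 unadjusted in the amygdala were Cacna1d near Prkcd (-0.28) and Gna13 near Prkca (-0.17). In the hippocampus these were Ubfd1 (-0.24) and 4930413G21Rik (0.63) near Prkcb, and Six3 (0.41) and Socs5 (0.24) near Prkce. Of all probe sets, 10.7% were under 0.05 unadjusted in the amygdala and 11.8% in the hippocampus.

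**Figure D2:**
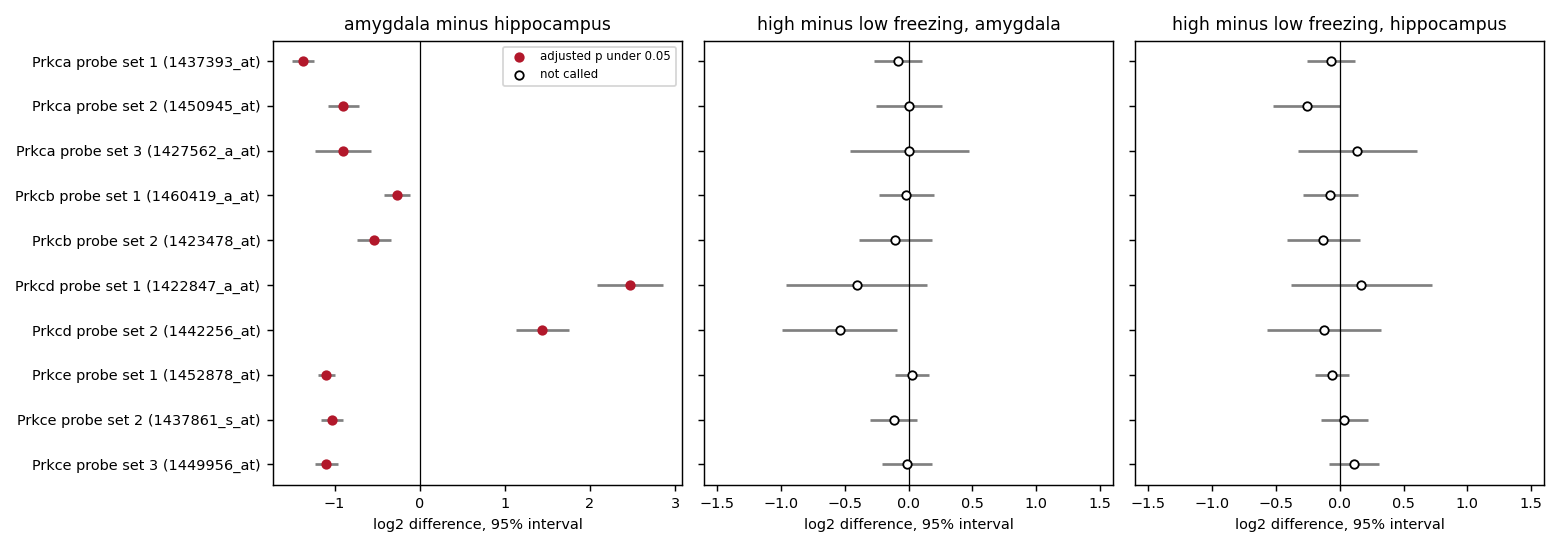
Log2 differences with 95% intervals of the 10 tested probe sets, for amygdala minus hippocampus (left) and for high minus low freezing in the amygdala (middle) and the hippocampus (right). Filled points passed limma at an adjusted p under 0.05: all 10 on the left, 0 in the middle and 0 on the right.

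Prkcd probe set 1 had the largest spread of the 10 probe sets between amygdala arrays of the same freezing group. The pooled SD of Prkcd probe set 1 within freezing groups was 0.76 on the log2 scale in the amygdala, above 99.8% of all probe sets, and 0.12 in the hippocampus, above 17.5%. Its SD was 1.03 in the high freezing amygdala and 0.33 in the low freezing amygdala, where that of the dim Prkca probe set 3 was larger, at 0.55. The pooled amygdala SD of Prkca probe set 3 was 0.56, above 98.8% of all probe sets, and that of Prkcd probe set 2 was 0.47. The ratio of the amygdala to the hippocampus SD of Prkcd probe set 1 was 6.47, against a median of 1.05 over all probe sets. For Prkcb probe set 2 the SDs were 0.38 in the amygdala and 0.11 in the hippocampus, and for Prkce probe set 1 0.14 and 0.08. All 10 members had a ratio above the median, from 1.37 upward.

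The array-to-array pattern of Prkcd was then set beside lists of marker genes, 12 lists in each region, with Prkcd left out of every list. The lists were chosen with earlier results of these data known, so their p-values are not those of independently set tests. Within the 12 amygdala arrays it followed the thalamus list, Pearson's r = 0.971 and Spearman's rho = 0.951, with an adjusted permutation p of 0.00012 for each. The unadjusted p of 1e-05 is the smallest that 100000 resamples can give. Without the 2 arrays farthest from the list's median r was 0.942. Within the 6 high freezing arrays it was 0.989 and within the 6 low freezing arrays 0.934. The relation was therefore present in the low freezing group, which holds none of the 3 arrays that stood apart in Prkcd.

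Against the 11 other central amygdala markers the sign was negative. There r was -0.770 and rho -0.811 over the 12 amygdala arrays, with adjusted permutation p-values of 0.0178 and 0.0140. It was -0.668 without the 2 farthest arrays, -0.934 within high freezing and -0.648 within low freezing. Across these arrays the level of Prkcd ran opposite to the mean of the other markers listed for the central amygdala. Whether those markers come from the same cells as Prkcd was not tested. No other list passed in the amygdala at this setting. The nearest by r were the basolateral amygdala list (r = -0.675, adjusted permutation p = 0.0515) and the oligodendrocyte list (r = 0.635, adjusted permutation p = 0.0731). With quantile normalization both passed by r, at adjusted permutation p = 0.0473 each. By rho under that normalization the basolateral amygdala list passed (adjusted permutation p = 0.0453), as did the hypothalamus and choroid plexus lists (0.0323 each), and the oligodendrocyte list did not (0.0956).

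Of the 11 measured thalamus genes, 9 correlated with Prkcd at r = 0.860 or more after the freezing group means were subtracted. They included Ntng1, a synaptic adhesion protein gene (0.982), Rora, a nuclear receptor gene (0.979), Tnnt1, a troponin gene used as a thalamic marker (0.971), and Slc17a6, the vesicular glutamate transporter of the thalamus and other subcortical regions (0.963). The exceptions were Calb2 (0.528) and Lhx9 (0.491). Of the central amygdala markers, Penk, an enkephalin precursor gene, had r = -0.853, Sst, the somatostatin gene, -0.617, and Isl1 0.188, with Gal, Tac2 and Dlk1 at -0.0036, -0.185 and -0.227. Negative values were not particular to that list, since 8 of 9 striatum genes had r of -0.59 or lower. These correlations across 12 arrays are descriptions.

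**Figure D3:**
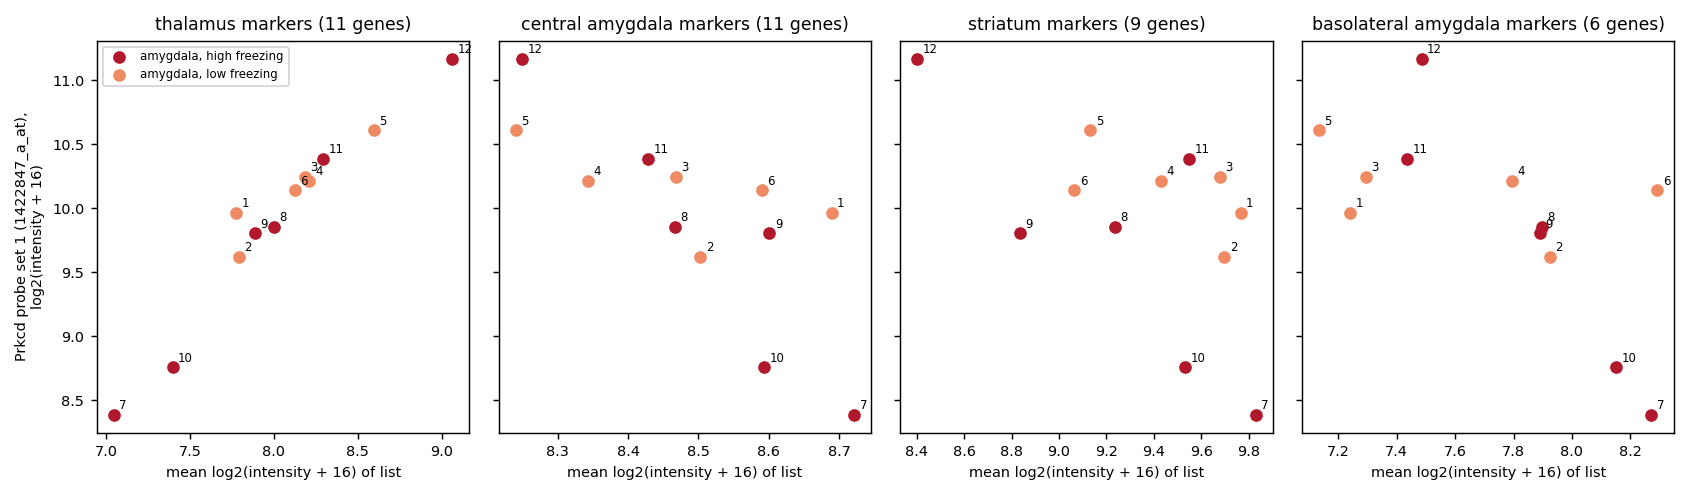
Prkcd probe set 1 on each of the 12 amygdala arrays (vertical axis, log2(intensity + 16)) against the mean log2 level of 4 marker lists (horizontal axes), with array numbers beside the points and high freezing arrays darker. The points climb along the thalamus list (r = 0.971) and descend along the central amygdala list (r = -0.770).

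Thalamus markers also differed in level between the regions. Summed over the 11 genes, their intensity ranged from 1692 to 7950 in the high freezing amygdala, with a median of 3548, and from 3132 to 5981 in the low freezing amygdala, with a median of 4269. In the hippocampus the sum ranged from 1264 to 1629 in high freezing mice, with a median of 1458, and from 1246 to 1525 in low freezing mice, with a median of 1362. The lowest amygdala sum lay above the highest hippocampus sum. Single genes did not all follow the sum. Lhx9 read 9.52 to 44.1 on amygdala arrays and 68.0 to 87.8 on hippocampus arrays, and Ntng1 and Calb2 overlapped between the regions. Separate sums were not particular to the thalamus, since those of the striatum, hypothalamus, oligodendrocyte and choroid plexus lists were separate in the same direction. The sums of the 11 central amygdala markers ranged from 4992 to 9593 in the high freezing amygdala and from 5843 to 9733 in the low freezing amygdala, with hippocampal sums of 3046 to 3545 and 3234 to 3830 in high and low freezing mice. The part of either cell population in the Prkcd difference was not tested.

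In the hippocampus Prkcd did not follow the thalamus list detectably (r = 0.285, adjusted permutation p = 0.534). No list passed there by r, the smallest adjusted permutation p being 0.0662 for the striatum and microglia lists. By rho those lists passed, at 0.769 and -0.769 (adjusted permutation p = 0.0314 each), over a range of Prkcd of 130 to 193. Both freezing groups were pooled in these tests, so a difference between the groups can add to the correlation. Within high and within low freezing, r was 0.485 and 0.567 for the striatum list. For the microglia list it was -0.660 and -0.446 in the same order. With 1 added in place of 16, the striatum, microglia and hypothalamus lists passed by r (adjusted permutation p = 0.0425, 0.0425 and 0.0444).

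**Figure D4:**
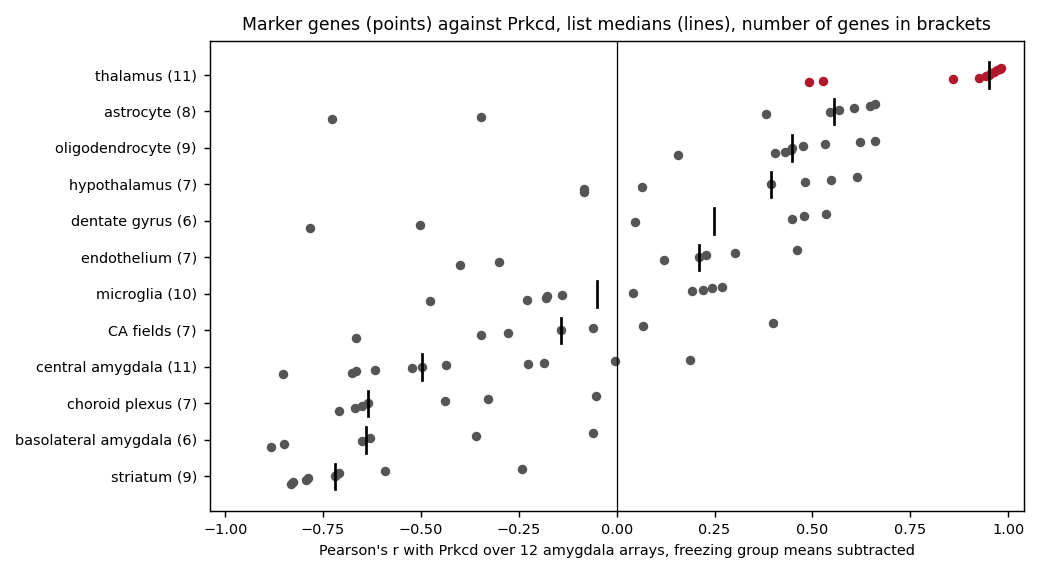
Pearson's r of each marker gene with Prkcd probe set 1 over the 12 amygdala arrays, after the freezing group means were subtracted, by list (points, genes; lines, list medians; number of genes in brackets). Of the 11 thalamus genes (top row), 9 lie at 0.860 or more, and the striatum and basolateral amygdala lists lie furthest to the left.

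The members were also compared with one another and with all genes by the same correlations, given as descriptions over arrays that share their tissue pieces. In the amygdala the 2 Prkcd probe sets followed each other (r = 0.902) and ran opposite to Prkcb probe set 2 (r = -0.907 for the brighter Prkcd probe set) and Prkcb probe set 1 (r = -0.841). The 2 Prkcb probe sets followed each other as well (r = 0.892), whereas the 3 Prkca probe sets did not (r = 0.179, 0.072 and -0.089). In the hippocampus, where Prkcd varied little, its probe sets had r = 0.106.

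Genes most like Prkcd in the amygdala were Shox2, a homeobox gene (r = 0.986), Plekhg1 (0.984), Plcb4, a phospholipase C gene (0.982), Ptpn4 (0.982) and Ntng1 (0.982), while 3.39% of 12470 genes had r over 0.7. Those most like Prkcb were Pde2a, a cyclic nucleotide phosphodiesterase gene (0.994), Gucy1a1, a guanylate cyclase subunit gene (0.972), Grasp, Lrrc4c and Col6a1. Those most like Prkca were Gm10336 (0.890), Kcng2, Crym, Ift74 and Klf10. Those most like Prkce were Ssbp3 (0.966), Apaf1, Cadm1, Pnma2 and Rspo2, the last of them a basolateral amygdala marker.

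In the hippocampus the most alike genes were others. Prkcd had 1110038B12Rik (r = 0.884), Rfxap, Sowahb, Mks1 and Plcd3. Prkcb had Eef1a1, a translation elongation factor gene (0.979), Chgb, Uqcrb, Aldoa and Ppp2r1a. Prkca had Strbp (0.949), Setd4, Pdxk, Ift20 and Cpeb3. Prkce had Ndufc2 (0.915), Rnf187, Pfn2, Gnas and Chchd4.

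Around the 4 isoforms, 67 of 82 listed genes of the pathway were measured, each by its brightest probe set. Between amygdala and hippocampus 24 were higher, 22 were lower and 21 did not pass in limma, with a median log2 difference of 0.004. Over all 12471 genes 31.6% were higher and 24.6% lower, with a median of 0.036. None of the 67 passed in a freezing comparison.

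Receptors and G proteins that feed phospholipase C had 2 higher and 5 lower of 8. Htr2c, a serotonin receptor gene, was higher by 1.51 on the log2 scale, while the muscarinic receptor genes Chrm3 and Chrm1 differed by -1.43 and -1.15 and the glutamate receptor gene Grm5 by -0.73. Phospholipase C genes had 6 higher and 3 lower of 13. Plcb4 was higher by 2.04, Plcl1, which encodes a related but catalytically inactive protein, by 1.52 and Plce1 by 0.87, and Plch2 differed by -0.94.

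Enzymes that remove or consume diacylglycerol were mostly lower, 6 of 9, with 1 higher. The diacylglycerol kinase genes Dgkz, Dgkh and Dgkd differed by -1.30, -1.14 and -0.72 on the log2 scale, and Dagla, whose enzyme turns diacylglycerol into the endocannabinoid 2-arachidonoylglycerol, by -1.0. Other proteins that bind diacylglycerol all passed, 4 higher and 4 lower of 8. Unc13c, a vesicle priming gene, was higher by 3.27, Rasgrp2, an exchange factor gene for Rap, by 2.39 and Chn2, a Rac-inhibiting chimaerin gene, by 1.99, while its relative Chn1 differed by -1.31.

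The other kinases of the family had 4 higher and 1 lower of 9. Prkcq was higher by 1.46 on the log2 scale, Prkch by 1.02, the protein kinase D gene Prkd3 by 0.92 and the atypical isoform gene Prkcz by 0.27. Prkci, the other atypical isoform gene, differed by -0.20. Anchors and regulators had 3 higher and 0 lower of 11, namely the scaffold gene Akap12 (0.97), the polarity gene Pard3 (0.71) and Phlpp1, a phosphatase gene that acts on these kinases (0.70). Substrates had 4 higher and 3 lower of 9, with Nrgn, the neurogranin gene, at -1.33, the adducin gene Add2 at -0.84, the growth cone protein gene Gap43 at 0.62 and the vimentin gene Vim at 0.30.

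The pathway genes also differed in how they followed Prkcd within the amygdala. Of the 24 higher genes, 2 had r over 0.7 with Prkcd, Plcb4 and Plch1, and 1 had r under -0.7, Htr2c. Of the 22 lower genes, 0 had r over 0.7 and 6 had r under -0.7, among them Add2 (-0.887), Chrm1 (-0.883) and Grm5 (-0.880). Over all 12470 genes 3.39% had r over 0.7 and 4.91% under -0.7. The shares among all genes higher or lower in the amygdala were not computed, so these counts do not set the pathway apart.

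**Figure D5:**
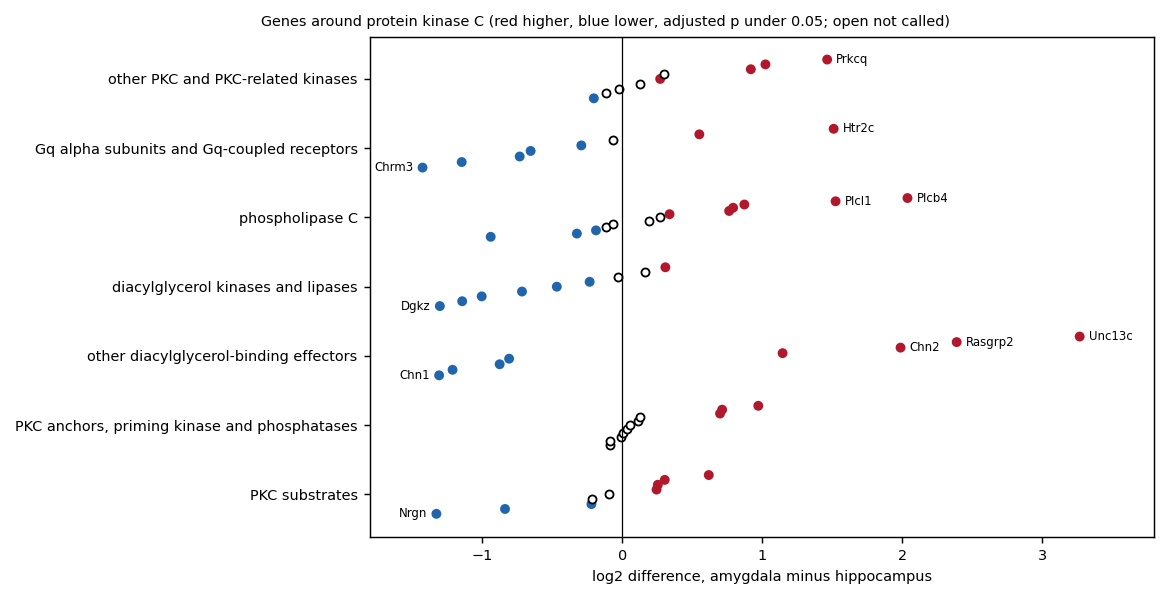
Log2 difference, amygdala minus hippocampus, of the 67 measured pathway genes in 7 role groups (points; filled red higher and filled blue lower at a limma adjusted p under 0.05, open not passed). Unc13c stands furthest right at 3.27 and Chrm3 furthest left at -1.43, and the diacylglycerol kinases and lipases have 6 of 9 points filled on the left.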

How the data were processed

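Total RNA of amygdala and hippocampus was measured on 24 arrays in 4 groups of 6. The authors deposited 1 table of linear intensity per probe set; its values are already scaled per array, and the program behind them is not named in the labels. The number of arrays limits the precision. The members, lists and tests were chosen with earlier results of these data known.

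Intensities were taken as log2(intensity + 16) without further normalization. The 64 control probe sets and the dimmest 40% by mean log2 were left out, which kept 27022 of 45101. limma 3.58.1 in R 4.3.3 fitted 1 mean per group with an intensity trend, 20 residual degrees of freedom, two-sided, and was tested on simulated data. Gene names came from the platform annotation: 34958 probe sets had 1 symbol, 932 several and 9211 none; 34754 symbols were checked by gene ID. A gene on several probe sets was taken by its brightest; all member probe sets are reported. Correlations used 100000 permutations in SciPy 1.17.1 and Python 3.11.15, adjusted over 12 lists in each region.

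The text names every member probe set, up to 4 called pathway genes per role by size, and the 5 genes most like each member's brightest probe set. Any other gene was picked with its values in view. Across regions, arrays of the same number did not deviate together (r = -0.079 to 0.086 over 12 pairs), and the numbers were not used as pairs. Because the pieces come from different regions, this cannot show whether arrays of the same number came from the same animal. Alternatives were other added constants, normalizations, filters, variance priors, weights and blocks, and leaving out each array.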

Additional observations from a re-analysis of the deposited data

Results flagged for a closer look

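Of 40 groups of 6 arrays (10 probe sets in 4 groups), 2 held a value far from the rest of its group by Dixon's test, and chance gives about 1 in 20 groups. For Prkcd probe set 2, array 5 of the low freezing amygdala read 133, with the next array at 91.9. For Prkce probe set 2, array 2 of the low freezing hippocampus read 2354, with the next array at 2086.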

How the results depend on the processing

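The regional differences of all tested members kept their sign and their call under every alternative run; 2 dim probe sets, Prkca probe set 3 and Prkcd probe set 2, were not tested with the dimmest 60% left out, where 8 of 8 were called. The log2 difference of Prkcd probe set 2 was 2.11 with 1 added and 0.77 with 64, against 1.44. With each array centred on its median, 5580 probe sets were called higher and 8605 lower in the amygdala, against 7310 and 6522. No member was called in a freezing comparison or the interaction under any alternative.

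Over all probe sets, the hippocampal freezing calls were 9 with 1 added, 6 with no filter, 9 with the dimmest 60% left out, 5 with a prior without trend, 31 with array weights, 22 with each region fitted alone, and 0 to 33 when arrays were left out (0 without array 5 and 33 without array 2 of low freezing hippocampus). The amygdala calls were 2 with a prior without trend, 0 with each region fitted alone, and 2 to 56 when arrays were left out (2 without array 1 and 56 without array 6 of low freezing amygdala). The lists that passed by r against Prkcd in the amygdala numbered 4 with quantile normalization, against 2.

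Signs turned for uncalled values near 0. Centred on medians, the hippocampal freezing value of Prkce probe set 2 was -0.019, the amygdala values of Prkca probe set 2, Prkca probe set 3 and Prkce probe set 1 were -0.041, -0.038 and -0.016, and the interaction of Prkca probe set 1 was 0.0012. With quantile normalization the amygdala values of Prkca probe set 2 and Prkca probe set 3 were -0.026 and -0.040, and with 1 added that of Prkca probe set 2 was -0.0046. With arrays left out, amygdala values ranged from -0.11 to 0.082 (Prkca probe set 2), -0.17 to 0.13 (Prkca probe set 3), -0.11 to 0.096 (Prkcb probe set 1), -0.20 to 0.079 (Prkcb probe set 2), -0.0049 to 0.074 (Prkce probe set 1) and -0.084 to 0.052 (Prkce probe set 3). The interaction ranged from -0.077 to 0.057 (Prkca probe set 1), -0.032 to 0.17 (Prkcb probe set 1) and -0.076 to 0.21 (Prkcb probe set 2). The cause was not tested. With the array number as a replicate block, 13763 (fixed) and 13963 (random) probe sets were called between regions, against 13832, members 10 of 10 in both; 2 of 12 arrays correlated best with their own number.

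Dim probe sets (Prkca probe set 3, Prkcd probe set 2) have folds that depend on the added constant, and 6 arrays a group limit the freezing comparisons.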
